A study of Mus musculus with 6 samples.

Results

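The genes of MHC class I antigen presentation were followed in mouse testis cells through every probe set (a group of short probes that reports 1 transcript) annotated to 10 symbols: the class I heavy chains H2-D1, H2-K1 and H2-T23, the light chain gene B2m, the peptide transporter genes Tap1 and Tap2, the loading factor gene Tapbp, and the inducible proteasome subunit genes Psmb8, Psmb9 and Psmb10. They comprised 30 of the 22626 probe sets tested. Of these, 25 were annotated to 1 listed gene alone and 5 to a listed gene together with another gene. Both probe sets of H2-T23 belonged to the second kind, so that 9 of the 10 genes had a probe set of their own.

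Total RNA from 6 cell samples was hybridised to 1 Mouse430A_2 array each. Every sample came from CD4HAglo transgenic mice, in which a truncated Stra8 promoter, active in germ cells, directs expression of a surface marker containing human CD4. Magnetic beads against that protein took out positive cells, and 50 males were pooled for each such preparation. The comparison was between 3 arrays titled spermatogonial stem cells, whose source was CD4-positive cells, and 3 titled total testicular cells, whose source description names CD4-negative cells, which the title does not say. Strain and age are not given in the sources used here. Nothing in the labels says which pools the replicates came from, so p-values measure the spread between these arrays, which may be technical. Values are the deposited log2 values, and a difference is stem cell minus total testicular cell arrays. The call is an adjusted p under 0.05 in limma over all probe sets.

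Class I molecules display short peptides from inside the cell to T cells. The proteasome cuts cytosolic proteins into peptides, TAP1 and TAP2 pump them into the endoplasmic reticulum, tapasin (the Tapbp product) holds the empty class I molecule at the transporter, and the heavy chain leaves for the surface once it is bound to beta-2 microglobulin and a peptide. In immune cells and after interferon, the subunits encoded by Psmb8, Psmb9 and Psmb10 take the places of the constitutive catalytic subunits. Germ cells of the adult testis are known for little class I on their surface.

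Promoters of 4 of these genes are shown: those of H2-D1, H2-K1 and B2m, each with a probe set that rose on the stem cell arrays, and that of Tap1, which did not pass, for comparison. Each is the RefSeq window (GRCm38.p6) from 250 bases before to 50 bases after a listed start, 5′ to 3′ on the gene's strand. Capitals mark matches, on either strand, to the motifs searched. These were the NF-kappaB site of class I enhancer A (11 letters, the first capitals in the H2-D1 window), the NF-kappaB consensus, which overlaps it, AANNGAAA (the core bound by interferon regulatory factors), TGACG (the cyclic AMP response element core) and CCAAT (the Y box).
H2-D1, chr17:35262844-35263143, plus strand: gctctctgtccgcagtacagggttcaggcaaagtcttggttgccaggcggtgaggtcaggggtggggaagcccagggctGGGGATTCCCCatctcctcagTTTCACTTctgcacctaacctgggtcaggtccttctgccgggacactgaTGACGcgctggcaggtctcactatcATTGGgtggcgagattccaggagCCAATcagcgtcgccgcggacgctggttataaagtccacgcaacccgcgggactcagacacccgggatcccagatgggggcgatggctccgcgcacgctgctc
H2-K1, chr17:34000298-34000597, minus strand: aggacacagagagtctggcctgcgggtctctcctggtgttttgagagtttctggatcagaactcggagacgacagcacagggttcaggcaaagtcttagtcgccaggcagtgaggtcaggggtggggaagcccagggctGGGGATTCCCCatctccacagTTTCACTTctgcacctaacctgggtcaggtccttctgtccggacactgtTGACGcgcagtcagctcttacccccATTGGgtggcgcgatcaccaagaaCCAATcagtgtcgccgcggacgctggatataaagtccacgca
B2m, chr2:122147437-122147736, plus strand: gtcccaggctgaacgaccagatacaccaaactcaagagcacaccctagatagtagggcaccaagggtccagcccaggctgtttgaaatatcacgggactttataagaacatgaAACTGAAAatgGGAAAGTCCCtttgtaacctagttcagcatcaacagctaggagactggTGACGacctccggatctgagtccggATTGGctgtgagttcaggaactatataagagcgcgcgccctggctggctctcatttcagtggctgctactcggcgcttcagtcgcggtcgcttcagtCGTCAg
Tap1, chr17:34187306-34187605, plus strand: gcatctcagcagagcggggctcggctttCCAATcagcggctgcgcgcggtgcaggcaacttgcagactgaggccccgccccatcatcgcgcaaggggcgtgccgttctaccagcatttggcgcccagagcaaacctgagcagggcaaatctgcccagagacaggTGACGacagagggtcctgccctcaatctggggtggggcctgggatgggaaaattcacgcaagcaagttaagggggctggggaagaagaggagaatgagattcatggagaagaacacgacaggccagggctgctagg

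The H2-D1 and H2-K1 windows were 88.3% identical over 239 aligned bases. In both, the motifs stood in 1 order: the enhancer A site, the interferon regulatory factor core, TGACG and a Y box on each strand. The enhancer A site occurred in these 2 of the 9 genes with a promoter in the table and in 0.0222% of 27025 promoters of the same length. The NF-kappaB consensus, which includes that site, was found in 3 of the 9 (H2-D1, H2-K1 and B2m) and in 8.18% of all promoters. AANNGAAA was found in 4 (H2-D1, H2-K1, H2-T23 and B2m) and in 24.2% of all. TGACG occurred in 5 (H2-D1, H2-K1, B2m, Tap1 and Psmb9) and in 21.0%, and CCAAT in 7 (these and also H2-T23 and Tapbp) and in 37.9%. The Tap1 and Psmb9 windows share 275 bases, since the genes start 225 bases apart on opposite strands. The windows of Psmb8 and Psmb10 held none of the 5 motifs. A match is a description of letters in this window and no evidence of binding.

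On the stem cell arrays both B2m probe sets, 6 of 9 for H2-D1, 1 of 4 for H2-K1 and 1 of the 2 shared by H2-T23 and H2-T-ps rose. The probe sets of the transporter, tapasin and inducible proteasome genes did not pass the test. Of the 30 probe sets, 10 were higher and 0 lower by limma, against 1.4% higher and 0.15% lower over all probe sets. At an unadjusted p under 0.05, 19 were higher and 0 lower (11.4% and 12.1% of all probe sets). The difference was above 0 for 26 of the 30, beside 45.0% of all probe sets. The groups did not overlap for 18 probe sets that were higher (13.5% of all probe sets) and for 2 that were lower (17.5%). The median difference was 0.98, beside −0.03 over all probe sets. The count depends on the arrays included. It fell to 2, 4 and 3 without total testicular cell replicate 1, 2 or 3, and rose to 11, 13 and 17 without stem cell replicate 1, 2 or 3. The fit takes 1 spread for both groups, and the stem cell arrays varied more (B2m 1449289_a_at, SD 1.11 against 0.45). The part of this unequal spread in the counts was not tested. All 10 kept positive differences within each fluidics round (runs that started close together) that held both groups. They ran from 2.68 to 4.84 in round 1 and from 1.71 to 2.84 in round 3. Round 1 held stem cell replicate 1 and total testicular cell replicates 1 and 3, and round 3 held replicate 2 of each group. Each within-round value thus rests on 1 stem cell array. Stem cell replicate 3 was alone in round 2, so a fit with the round as a block takes no difference from it. With the fluidics module as a block, which left 1 residual degree of freedom, 0 passed by limma and 16 were higher at an unadjusted p under 0.05. A single module held both groups, so the difference in that fit is stem cell replicate 2 minus total testicular cell replicate 3, 1 array against 1. For the 10 it ran from 1.55 to 3.54.

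**Figure D1:**
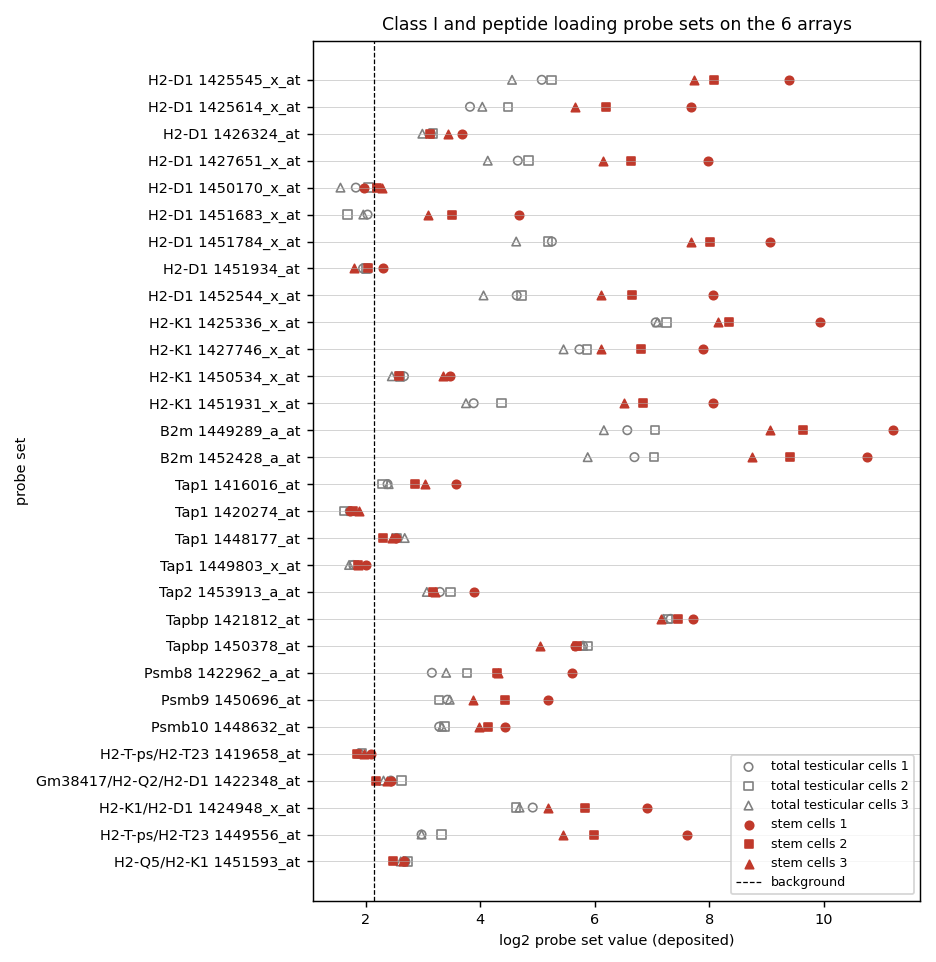
Deposited log2 values (horizontal axis) of the 30 probe sets (vertical axis) on the 3 total testicular cell arrays (open grey) and 3 stem cell arrays (filled red), with circles, squares and triangles for replicates 1, 2 and 3 and a dashed line at the background of 2.15. The B2m probe sets and most H2-D1 probe sets separate the groups, and the Tap2 values overlap.

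Stem cell replicate 1 stood apart from replicates 2 and 3. It had the highest stem cell value in 27 of the 30 probe sets, against 30.9% of all probe sets. Pairs of stem cell arrays had r = 0.970 to 0.984 across probe sets (not independent replicates) and pairs of the others r = 0.992 to 0.995. On each array 79.7% to 84.1% of probe sets exceeded a background of 2.15, the 95th percentile of the means of 27 bacterial control probe sets. Markers of some other cells also moved. Of 20 macrophage and monocyte markers, 14 rose and 0 fell (1.63% of all genes rose), with a median difference of 3.16. Their summed linear level was 1243 to 1328 on the total testicular cell arrays and 4023 to 12037 on the stem cell arrays, and no marker was under background on every array. Aif1 and Fcgr3 made up 69.1% to 79.4% of the first sums, and without them the sums were 273 to 384 and 2962 to 11011. Csf1r, the receptor of a macrophage growth factor, differed by 4.76, and Aif1 by −0.11. All 6 measured Leydig cell markers had positive differences (median 1.74) and 0 passed by limma, with 6 higher at an unadjusted p under 0.05. Their sum was 270 to 627 against 789 to 3233. Of 14 Sertoli cell markers Clu and Ctsl rose (sums of 718 to 810 and 1453 to 3486, and of 252 to 302 and 380 to 473 without these 2 genes). At an unadjusted p under 0.05 in limma, 4 of the 14 were higher and 0 lower. Among 17 lymphocyte markers 0 passed by limma and 1 was higher at an unadjusted p under 0.05, beside 11.8% of all genes. The sums were 148 to 156 and 138 to 178, and Klrd1, Klrk1 and Gzmb were under background on every array. Of 16 markers of undifferentiated spermatogonia, the labelled cell type, 0 passed by limma. At an unadjusted p under 0.05, 1 was higher and 2 lower, beside 11.8% and 13.1% of all genes. Lin28a and Cdh1 were under background on every array. The list's differences ran from −0.63 (Epcam) to 0.99 (Itga6), with a median of −0.10 and 6 of 16 above 0. A further set for Itga6 differed by −0.05. The sums were 519 to 527 on total testicular cell arrays and 307 to 452 on stem cell arrays. Id4 and Epcam made up 78.8% to 81.2% of the first, and without them the sums overlapped (98.6 to 110 and 104 to 118). By limma 0 passed among 11 endothelial, 7 dendritic cell, 8 peritubular myoid, 3 erythroid and 12 spermatocyte and spermatid markers. At an unadjusted p under 0.05, 3 myoid and 1 spermatocyte and spermatid markers were higher, and 1 of the latter list and 1 erythroid lower. The spermatocyte and spermatid sums were 33687 to 40021 on total testicular cell arrays and 32451 to 38630 on stem cell arrays. The part of any of these cells in the class I differences was not tested, and in mixed cells a change in the share of a cell type and in RNA per cell cannot be told apart.

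B2m, the light chain gene shared by the class I molecules (chromosome 2, GRCm38.p6, 122147687 to 122153082), rose on both of its probe sets. The values of 1449289_a_at were 6.57, 7.05 and 6.16 on total testicular cell arrays 1, 2 and 3 and 11.2, 9.63 and 9.06 on stem cell arrays 1, 2 and 3. All stem cell values lay more than 2 log2 units above the highest of the others. The means were 6.59 ± 0.45 (SD, n = 3) and 9.97 ± 1.11 (SD, n = 3), a 10.4-fold difference (log2 3.37 ± 0.47 SE, limma adjusted p = 0.0145). On 1452428_a_at, the total testicular cell values were 6.69, 7.04 and 5.88 and the stem cell values 10.8, 9.41 and 8.74. That probe set differed by 3.10 ± 0.47 (SE, limma adjusted p = 0.0212). Both lost the call without total testicular cell replicate 1 (adjusted p = 0.0953 and 0.115) or replicate 3 (0.0914 and 0.109), and the second also without replicate 2 (0.0603). Their differences there stayed between 2.77 and 3.36. Without stem cell replicate 1 they were 2.76 and 2.54, and both passed.

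H2-D1, a classical class I heavy chain gene (chromosome 17, 35263094 to 35267497), had 9 probe sets, of which 6 rose. The probe set 1425545_x_at read 5.08, 5.25 and 4.56 on total testicular cell arrays and 9.39, 8.09 and 7.74 on stem cell arrays. The means were 4.96 ± 0.36 (SD, n = 3) and 8.41 ± 0.87 (SD, n = 3), a 10.9-fold difference (log2 3.45 ± 0.39 SE, limma adjusted p = 0.00587). The probe set 1451784_x_at read 5.25, 5.18 and 4.63 against 9.06, 8.02 and 7.69, a difference of 3.23 ± 0.33 (SE, adjusted p = 0.00488). These 2 passed in all 6 fits that left out 1 array, with differences of 2.95 to 3.78 and of 2.83 to 3.52. In these the groups were far apart on every array.

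The other 4 that rose were smaller changes on similar patterns. Differences were 2.47 for 1452544_x_at, 2.39 for 1425614_x_at and 2.37 for 1427651_x_at (adjusted p = 0.0379, 0.0411 and 0.0371). The stem cell values of these 3 probe sets ran from 5.65 to 8.07 and the others from 3.82 to 4.84. The fourth, 1451683_x_at, was under background on total testicular cell arrays (2.04, 1.69 and 1.96) and read 4.68, 3.51 and 3.09 on stem cell arrays. Against background it was at least 3.05-fold higher, the mean of the stem cell arrays set against 2.15 (adjusted p = 0.0411). Each of these 4 lost the call without any 1 of the total testicular cell arrays (adjusted p of up to 0.212).

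All 6 H2-D1 probe sets that rose carry the mark x in their name, which the array maker gives to sets with probes shared with other sequences. The 2 without it did not pass. The first, 1426324_at, read 3.14, 3.18 and 2.99 on total testicular cell arrays and 3.68, 3.13 and 3.44 on stem cell arrays (0.31, 95% interval −0.11 to 0.73, adjusted p = 0.339). The second, 1451934_at, lay under background on 5 of 6 arrays (1.96, 2.01 and 2.03 against 2.31, 2.04 and 1.81), so that no change could be read from it. The mean of the 2 gave a difference of 0.18 (adjusted p = 0.438). The ninth, 1450170_x_at, reached background on 2 stem cell arrays only (2.20 and 2.30) and did not pass (0.34, adjusted p = 0.187). The 9 sets therefore ranged from 0.05 to 3.45, and how much of the signal of the marked sets comes from H2-D1 itself was not tested.

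H2-K1, the second classical heavy chain gene (chromosome 17, 33996012 to 34000619), rose on 1 of its 4 probe sets, all with the mark x. That probe set, 1451931_x_at, read 3.89, 4.37 and 3.75 on total testicular cell arrays and 8.06, 6.84 and 6.52 on stem cell arrays. The groups lay far apart, with a difference of 3.13 ± 0.37 (SE, limma adjusted p = 0.00666, and 0.0549 without total testicular cell replicate 1). The brightest set, 1425336_x_at, read 7.06, 7.25 and 7.09 against 9.94, 8.34 and 8.15. Its groups did not overlap, but the stem cell arrays were spread over almost 2 log2 units, and the difference of 1.68 ± 0.40 (SE) missed the threshold (adjusted p = 0.0683). The call was gained when stem cell replicate 1 (1.11, adjusted p = 0.00289) or replicate 3 (2.00, adjusted p = 0.0161) was left out. It was also gained with the fluidics round as a block (2.10, adjusted p = 0.0182), which takes no difference from replicate 3. The other fits that left out 1 array gave no call (adjusted p of up to 0.261).

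The remaining H2-K1 sets did not pass either. The set 1427746_x_at read 5.73, 5.87 and 5.46 against 7.89, 6.80 and 6.12 (1.25, adjusted p = 0.108), and 0.0147 without stem cell replicate 3, where it differed by 1.66. The set 1450534_x_at read 2.67, 2.60 and 2.46 against 3.48, 2.58 and 3.36, with overlapping groups (0.56, adjusted p = 0.186, and 0.84 with adjusted p = 0.0334 without stem cell replicate 2). A set annotated to H2-K1 and H2-D1 together, 1424948_x_at, read 4.92, 4.63 and 4.69 against 6.92, 5.83 and 5.18. Its groups did not overlap and it did not pass (1.23, adjusted p = 0.109), but leaving out stem cell replicate 3 gave a call (1.63, adjusted p = 0.0154). So did the round as a block (1.72, adjusted p = 0.0137), where that array adds nothing to the difference.

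The H2-T23 product Qa-1 is a nonclassical heavy chain that presents leader peptides of classical class I chains to receptors of natural killer cells. Both of its probe sets are annotated to H2-T23 and to H2-T-ps, so neither gene can be named alone. The first, 1449556_at, read 2.98, 3.33 and 2.98 on total testicular cell arrays and 7.62, 5.99 and 5.44 on stem cell arrays. It rose 9.53-fold (log2 3.25 ± 0.47 SE, limma adjusted p = 0.0169), and did not pass without total testicular cell replicate 1, 2 or 3 (differences of 3.19, 3.37 and 3.19, adjusted p = 0.114, 0.0689 and 0.107). Without stem cell replicate 1 the difference was 2.62, and it passed (adjusted p = 0.000609). The second, 1419658_at, lay under background on all 6 arrays (1.86 to 2.10). The 2 sets for these sequences thus read a large difference and no signal. Further joint sets, of H2-D1 with Gm38417 and H2-Q2 and of H2-K1 with H2-Q5, differed by −0.13 and −0.07.

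**Figure D2:**
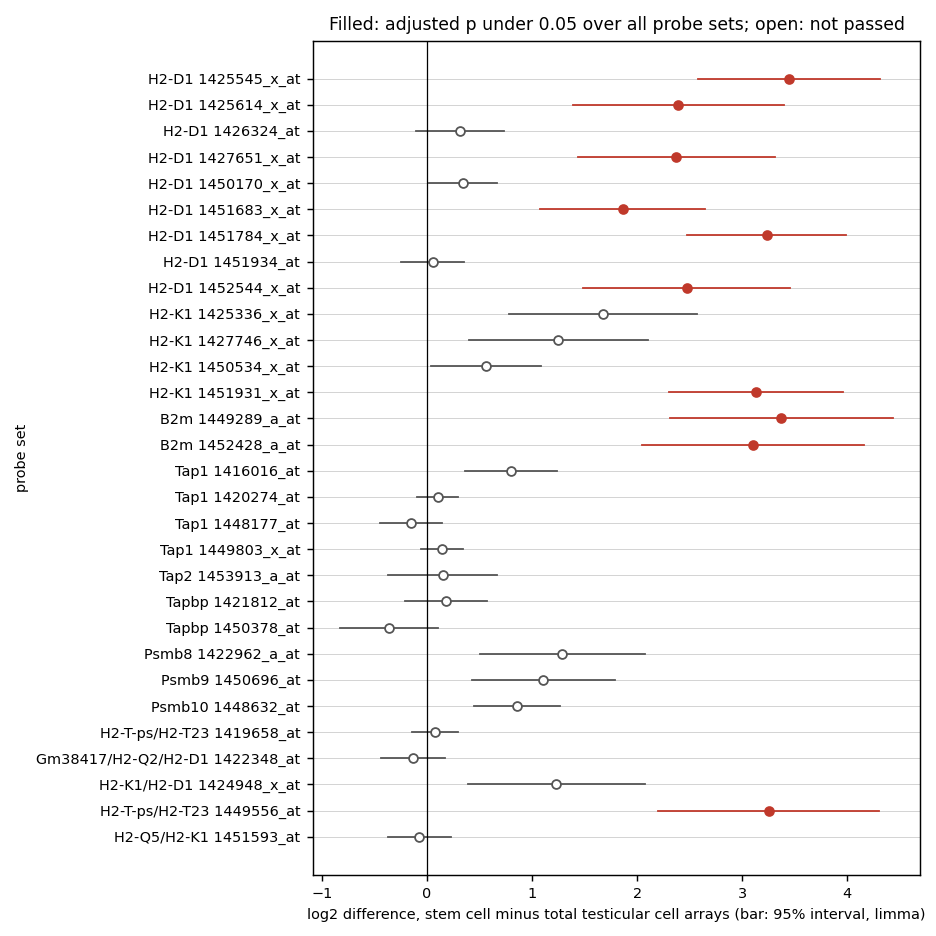
Log2 difference between stem cell and total testicular cell arrays (horizontal axis) for each of the 30 probe sets (vertical axis), with 95% intervals from limma; filled red points passed an adjusted p of 0.05 and open points did not. Filled points run from 1.86 to 3.45, and the 9 probe sets of H2-D1 run from 0.05 to 3.45.

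The inducible proteasome genes were higher on every stem cell array than on any total testicular cell array, by 1.81- to 2.44-fold, and did not pass over all probe sets. Psmb8, the inducible form of the chymotrypsin-like subunit, read 3.16, 3.77 and 3.41 on total testicular cell arrays and 5.60, 4.30 and 4.30 on stem cell arrays (1.29 ± 0.35 SE, limma adjusted p = 0.0888). Psmb9, the counterpart of the caspase-like subunit, read 3.43, 3.28 and 3.47 against 5.19, 4.43 and 3.88 (1.11 ± 0.30 SE, adjusted p = 0.0901). Psmb10, the counterpart of the trypsin-like subunit, read 3.29, 3.38 and 3.33 against 4.44, 4.13 and 3.99 (0.85 ± 0.18 SE, adjusted p = 0.0558). Over all genes, 13.8% were higher without overlap and 11.8% were higher at an unadjusted p under 0.05 in limma. In that fit 0 of the 3 passed and all 3 were higher at an unadjusted p under 0.05. All 3 passed without stem cell replicate 3, with adjusted p = 0.0400, 0.0129 and 0.0204, and Psmb10 also without stem cell replicate 2 (0.88, adjusted p = 0.0458). They passed in none of the other fits without 1 array, where adjusted p reached 0.313, 0.293 and 0.247. Over all probe sets, leaving out stem cell replicate 3 raised the number called higher from 316 to 1365. With the fluidics round as a block, which likewise takes no difference from stem cell replicate 3, Psmb9 (1.49, adjusted p = 0.0137) and Psmb10 (0.97, adjusted p = 0.0362) passed.

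The constitutive subunits that these replace did not pass. Psmb5, Psmb6 and Psmb7 differed by −0.12, −0.25 and −0.12 (adjusted p = 0.625, 0.269 and 0.545). Taken as a within-array difference, Psmb8 changed by 1.40 more than Psmb5, Psmb9 by 1.36 more than Psmb6 and Psmb10 by 0.98 more than Psmb7. In each of the 3 pairs all 3 stem cell arrays lay above all total testicular cell arrays (exact permutation test, two-sided, p = 0.10 for each of 3 pairs and 0.10 after adjustment, the smallest p that 3 against 3 arrays allow). These are unequal changes of probe set values and not ratios of the subunits. Without stem cell replicate 1 the 3 values were 0.95, 0.93 and 0.84. How often the groups separate for other pairs of genes was not tested.

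Tap1 encodes a subunit of the peptide transporter and had 4 probe sets, none of which passed. In limma 1 was higher at an unadjusted p under 0.05, beside 11.4% of all probe sets. The set 1416016_at read 2.38, 2.30 and 2.40 on total testicular cell arrays, close to background, and 3.58, 2.87 and 3.04 on stem cell arrays. All stem cell values were higher, with a difference of 0.80 ± 0.19 (SE, limma adjusted p = 0.0722). Leaving out stem cell replicate 2 (0.95, adjusted p = 0.0384) or 3 (0.86, adjusted p = 0.0431) brought it past the threshold. So did the fit with the round as a block (0.92, adjusted p = 0.0339), which takes no difference from replicate 3. The other fits without 1 array did not (adjusted p of up to 0.264). The set 1448177_at read 2.54, 2.54 and 2.68 against 2.53, 2.31 and 2.46, so that the groups lay apart the other way (−0.15, 95% interval −0.45 to 0.14, adjusted p = 0.501). The 2 others lay under background on all 6 arrays.

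Tap2, the partner subunit, had 1 probe set, 1453913_a_at, which read 3.30, 3.48 and 3.07 on total testicular cell arrays and 3.90, 3.18 and 3.21 on stem cell arrays. The groups overlapped, with a difference of 0.15 (95% interval −0.37 to 0.66, limma adjusted p = 0.737). Without stem cell replicate 1 the difference was −0.09 (adjusted p = 0.847). Tapbp, which encodes tapasin, was detected well above background on both of its sets. The set 1421812_at read 7.32, 7.28 and 7.19 against 7.72, 7.46 and 7.16, with overlapping groups (0.18, 95% interval −0.21 to 0.57, adjusted p = 0.557). The set 1450378_at read 5.79, 5.88 and 5.80 against 5.65, 5.69 and 5.05, with all stem cell values lower and no call (−0.36, 95% interval −0.82 to 0.10, adjusted p = 0.315). The interval of the brighter set leaves out a 2-fold rise, and the mean of both was −0.09.

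On chromosome 17, 4 of these genes lie side by side within the class II region, in the order Psmb9 (34182030 to 34187330), Tap1 (34187556 to 34197225), Psmb8 (34198195 to 34201454) and Tap2 (34204479 to 34216321). By their brightest probe sets they differed by 1.11, 0.80, 1.29 and 0.15 in that order, and Tapbp (33919478 to 33929290), further off, by 0.18. Psmb10 lies on chromosome 8 (105935728 to 105938392) and differed by 0.85. Whether these differences are unequal among the neighbours was not tested.

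By the brightest probe set of each gene, 2 of the 9 genes rose (B2m and H2-D1) and 0 fell, beside 1.63% and 0.137% of 12393 genes. At an unadjusted p under 0.05, 7 of the 9 were higher (11.8% of genes), and for 7 the groups did not overlap, all higher (13.8% of genes). Ordered by difference over 12393 genes, H2-D1 was at place 39, B2m at 45, H2-K1 at 233, Psmb8 at 376, Psmb9 at 483, Psmb10 at 720, Tap1 at 802, Tapbp at 2832 and Tap2 at 3177. The intervals of H2-D1 (2.58 to 4.32) and B2m (2.31 to 4.43) overlap almost wholly, as do those of Psmb8 (0.50 to 2.07) and Psmb9 (0.43 to 1.78). Stem cell replicate 1 was the highest stem cell array for all 9, beside 29.8% of genes. Its distance from the total testicular cell mean, as the median over a gene's probe sets, was 4.41 for B2m, 3.43 for H2-D1, 2.50 for H2-K1 and 2.15 for Psmb8. On replicates 2 and 3 it was 2.96 and 2.33 for B2m, 2.08 and 1.54 for H2-D1, 1.16 and 0.90 for H2-K1, and 0.85 and 0.86 for Psmb8. Macrophage markers stood at 4.32, 2.66 and 2.63 on replicates 1, 2 and 3 and Leydig cell markers at 2.82, 1.70 and 0.56, as list medians.

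**Figure D3:**
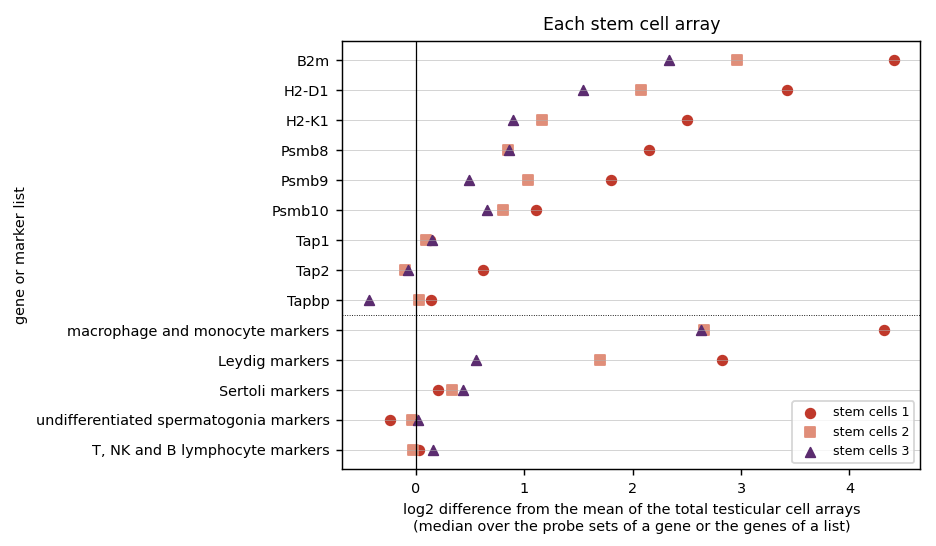
Log2 difference of each stem cell array from the total testicular cell mean (horizontal axis; circle, square and triangle for replicates 1, 2 and 3), as the median over the probe sets of 9 genes (above the dotted line) or over the genes of 5 marker lists (below it). Replicate 1 lies farthest right for B2m (4.41), H2-D1 (3.43) and macrophage markers (4.32), while lymphocyte and spermatogonial markers lie near 0.

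The genes whose values most resembled the brightest B2m probe set over the 6 arrays were Ctsd, Gas6, Prxl2b, Evi2a and Arhgdib, among 12392 genes ranked by Pearson's r (0.999 for the first 3 and 0.998 for the others). They are given as a description, because the 6 arrays fall into 2 groups and share stem cell replicate 1 as their highest array. Ctsd, which encodes a lysosomal protease, read 4.63, 5.05 and 4.49 on total testicular cell arrays and 8.30, 6.99 and 6.73 on stem cell arrays. Among the listed genes, H2-D1 was ranked 26 (r = 0.996), Psmb10 82, H2-K1 409, Psmb8 581, Tap1 615, Psmb9 685, Tapbp 2052 and Tap2 2675.

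Of 15 other class I heavy chain and class I-like genes with a probe set of their own, 2 rose and 0 fell (1.63% and 0.137% of all genes), with a median difference of 0.19, beside −0.05 over all genes. Fcgrt, which encodes the neonatal Fc receptor, a class I-like chain that binds beta-2 microglobulin and recycles antibodies, rose by 3.07 ± 0.46 (SE, limma adjusted p = 0.0199), from a mean of 3.62 to 6.69. Hfe, a class I-like regulator of iron uptake that also binds beta-2 microglobulin, rose by 2.63 ± 0.42 (SE, adjusted p = 0.0268), while a further set for it differed by 0.25. Both lost the call without total testicular cell replicate 1 (2.98 with adjusted p = 0.132, and 2.45 with 0.168) or replicate 3 (2.87 with 0.122, and 2.54 with 0.152), and Hfe also without replicate 2 (2.89, adjusted p = 0.0641). The largest of the rest were H2-M3, which presents formylated peptides (1.05, adjusted p = 0.101, and 1.39 with 0.0117 without stem cell replicate 3), and Mr1, which presents vitamin metabolites (0.38, adjusted p = 0.293). The joint set of H2-T9, H2-T22 and H2-T10, 1449875_s_at, read 2.77, 2.59 and 2.55 against 4.62, 3.37 and 3.28 and did not pass (1.12, adjusted p = 0.101). A second set for the same 3 genes differed by −0.01.

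Other genes of peptide loading and trimming did not pass. Of 16 measured, 0 were called by limma, 4 were higher and 1 lower at an unadjusted p under 0.05 (11.8% and 13.1% of all genes), and the median difference was 0.08. Erap1, which encodes the aminopeptidase that trims peptides for class I, had the largest (0.65 ± 0.14 SE, adjusted p = 0.0611, and 0.0320 without stem cell replicate 3), followed by the peptidase gene Blmh (0.60, adjusted p = 0.137). Erap1 read 2.01, 2.35 and 2.07 on total testicular cell arrays, above background on 1 only, and 2.72, 2.96 and 2.70 on stem cell arrays. The chaperone genes of the loading complex were abundant in both groups: Calr read means of 7.93 and 8.46 (adjusted p = 0.149) and Pdia3 9.21 and 9.36 (adjusted p = 0.535). Of 8 further proteasome genes 0 were called by limma, and 2 were higher and 0 lower at an unadjusted p under 0.05, with the same shares of all genes beside them. Psme1, a subunit of the interferon-inducible proteasome activator, differed by 1.99 ± 0.43 (SE, adjusted p = 0.0590), and by 2.49 without stem cell replicate 3 (adjusted p = 0.00501). Psma7, a core subunit gene, differed by 0.86 (adjusted p = 0.0902, and 0.0159 without that array). Psme1 and Psma7 each passed in 1 of the 6 fits without 1 array, with adjusted p of up to 0.244 and 0.317. With the fluidics round as a block, Psme1 (adjusted p = 0.0120), Psma7 (0.0311), Erap1 (0.0387) and H2-M3 (0.0222) passed. That fit also takes no difference from stem cell replicate 3, which was alone in its round.

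Of 21 measured regulators of class I genes, Ifnar2 rose and 0 fell, beside 1.63% and 0.137% of all genes, with a median difference of 0.07. At an unadjusted p under 0.05, 6 were higher and 3 lower (11.8% and 13.1% of all genes). Ifnar2, a chain of the type I interferon receptor, differed by 1.83 ± 0.36 (SE, limma adjusted p = 0.0472), while a further set for it gave 0.70. It lost the call under quantile normalization (adjusted p = 0.0584) and without total testicular cell replicate 1, 2 or 3 (adjusted p = 0.212, 0.136 and 0.231). Jak1, a kinase of interferon receptors, missed the threshold (1.33, adjusted p = 0.0504), and its 3 probe sets ran from 0.14 to 1.33. The brightest passed without any 1 of stem cell replicates 1, 2 or 3 (adjusted p = 0.0110, 0.0365 and 0.0162). That set also passed with centring on medians (1.22, adjusted p = 0.0483) and with the round as a block (1.59, adjusted p = 0.0160), which takes no difference from stem cell replicate 3. Irf8, an interferon regulatory factor of myeloid cells, differed by 1.83 (adjusted p = 0.0749), while a further set for it gave 0.73. The first set passed without stem cell replicate 2 (2.14, adjusted p = 0.0475) or 3 (2.05, adjusted p = 0.0361). With the round as a block, where replicate 3 again adds nothing to the difference, it also passed (2.17, adjusted p = 0.0325). The other fits of this set without 1 array gave no call (adjusted p of up to 0.283).

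In the class II pathway, which presents peptides from endosomes, 2 of 8 measured genes rose and 0 fell, beside 1.63% and 0.137% of all genes, with a median of 0.81. Cd74, the invariant chain gene, rose by 2.97 (limma adjusted p = 0.0431) and H2-Aa, a class II alpha chain gene, by 2.85 (adjusted p = 0.0493). Neither passed without total testicular cell replicate 1 (adjusted p = 0.193 and 0.212), 2 (0.137 and 0.143) or 3 (0.205 and 0.221), or under quantile normalization (0.0539 and 0.0591), nor H2-Aa without stem cell replicate 1 (2.23, adjusted p = 0.0529). Cd74 differed by 2.31 without stem cell replicate 1 and by 3.71 without replicate 2, and H2-Aa by 3.64 without replicate 2. With the module as a block, which compares stem cell replicate 2 with total testicular cell replicate 3 alone, Cd74 and H2-Aa differed by 1.69 and 1.29. Of the rest, H2-Eb1 differed by 1.49 (adjusted p = 0.0886, and 0.0301 without stem cell replicate 2) and H2-Ea by 0.97 (adjusted p = 0.132, and 0.0229 without that array). The 3 probe sets of H2-Ea ran from −0.06 to 2.02.

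**Figure D4:**
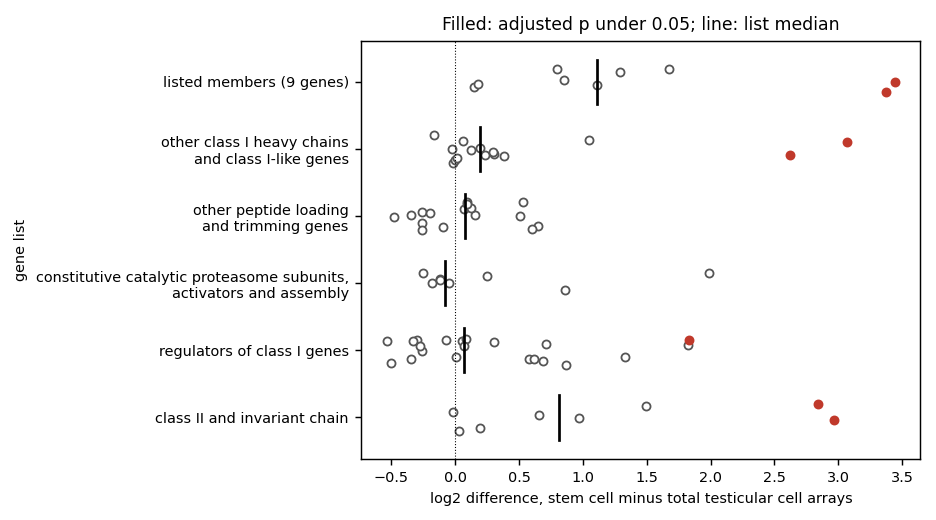
Log2 difference between stem cell and total testicular cell arrays (horizontal axis) for single genes of the listed members and of 5 related lists (vertical axis), each by its brightest probe set; filled points passed an adjusted p of 0.05, open points did not, and black lines are list medians. The members' median is 1.11 and those of the related lists run from −0.08 to 0.81.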

How the data were processed

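Per the file headers, all arrays came from 1 lot, were read on 1 scanner within 1 day and used 4 fluidics modules. The 3 fluidics rounds were defined here from start times, with runs begun under 15 minutes apart put in 1 round. Round and module each stood for a possible batch in the fits with a block. The array records carry 1 sample-type text for both groups. The authors deposited processed probe set values, on a log2 scale by their range (1.20 to 13.2). MAS5 and RMA are named, without a role, per the submitters' processing notes, so background correction and normalization are not given in the sources used here. Probe-level intensities and detection calls were not used here.

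Groups came from the titles. The 22626 probe sets that are not among 64 controls were fitted with limma 3.58.1 in R 4.3.3 (with an intensity trend; two-sided; Benjamini-Hochberg over all; 4 degrees of freedom from the arrays and 5.21 from the prior). Each list gene was taken by its brightest probe set (highest mean over the arrays). No gene was named from the 691 probe sets with several genes; 20380 had 1 and 1555 none. Background stands in for depth. On simulated data, limma recovered 47.8%, 92.5% and 100% of changes of log2 1, 2 and 4, with 9 false calls among 169. The simulation drew independent normal noise with 1 pooled spread per probe set for both groups. The stem cell arrays varied more (B2m 1449289_a_at, SD 1.11 against 0.45), so these rates may not hold for the real arrays. The members, lists and tests were chosen with earlier results of these data known. Named beside the members were list genes past the threshold and, of each list, the 2 largest other differences by size; Calr, Pdia3, the joint sets and the markers named singly were chosen after their values were seen. Alternatives were other normalizations, filters, blocks, weights and thresholds, and leaving out each array.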

Additional observations from a re-analysis of the deposited data

How the results depend on the processing

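The number of member probe sets called higher, 10 with all arrays, stayed 10 when values were quantile normalized or centred on medians, when dim probe sets were dropped, and with robust empirical Bayes. It was 17 with the replicate number as a block, 16 with the fluidics round and 0 with the fluidics module as a block (added after seeing the data). It was 15 with array weights, 5 without an intensity trend, 3 at an adjusted p under 0.01, and 2 to 17 when 1 array was left out. None was lower under any of these. The fit with the round takes no difference from stem cell replicate 3, and the fit with the module compares 1 array with 1. Same-numbered arrays deviated together at r = −0.01, 0.01 and 0.30, so the numbers were not taken as pairs. Over all probe sets the calls (316 higher, 34 lower) became 1065 and 196 with the replicate block, 1200 and 84 with the round, 0 and 0 with the module (3537 at an unadjusted p under 0.05), 119 and 6 without a trend, 853 and 148 with array weights, 53 and 0 at an adjusted p under 0.01, and 36 to 1365 and 0 to 943 when 1 array was left out. Median centring gave 91 lower, moving the median of all probe sets to −0.15, and a log2 criterion of 1 gave 22 lower. The 5 other pathway genes called higher became 2 under quantile normalization, 13 with the replicate block, 11 with the round, 0 with the module, 1 without a trend, 10 with array weights, 0 at 0.01 and 0 to 12 when 1 array was left out. The subunit differences ranged over arrays left out from 0.95 to 1.68 (Psmb8), 0.93 to 1.73 (Psmb9) and 0.84 to 1.06 (Psmb10).

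Of 445 values for single member probe sets under the alternatives, 374 kept direction and call, 36 lost the call, 29 gained it and 6 changed sign, all 6 near 0 and not called: 1451934_at (−0.057 with median centring, and −0.075 to 0.18 when 1 array was left out), 1420274_at (−0.010 with median centring), 1453913_a_at (−0.085 to 0.27 when 1 array was left out) and 1419658_at (−0.034 with median centring, −0.023 with the module). Tapbp as the mean of its probe sets also changed sign (−0.090, with or without marked sets). The causes were not tested. Signal over background limits Tap1 and several H2-D1 sets, where changes could be missed. The Tap2 set was dim but above background on every array (3.07 to 3.90).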
